A study of Rattus norvegicus with 30 samples.

Results

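The ileum samples described here are those of 18 sham-operated rats, split by whether the piece of tissue carried the transcripts of organised lymphoid follicles. The arrays were chosen by the mean log2 signal of 3 genes, Ccl19, Cxcl13 and Glycam1, each read from the brightest transcript cluster named for that gene alone. Of the 18 sham arrays, 8 had a mean above 7 and 10 had a mean at or below 7, out of 30 arrays in all. The rats were wild-type male Long-Evans rats aged 8 to 10 weeks, kept under specific pathogen-free conditions. They formed 5 groups of 6, and each rat gave 1 array. Sham_RYGB received the sham operation for Roux-en-Y gastric bypass, Sham_VSG the sham operation for vertical sleeve gastrectomy, and Sham_VSG_PF the sleeve sham with paired feeding. In the remaining groups, RYGB received the bypass and VSG the sleeve operation, in which most of the stomach is removed along its greater curve. Per the labels, solid food was replaced by the liquid diet Osmolite on the day before surgery, and surgery was done under isoflurane. The operations the labels describe are the sleeve and its sham only. For the sleeve sham, blunt forceps were pressed on the stomach. The details of the bypass, those of its sham and the time from surgery to tissue collection were not given in the sources used here.

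Follicles of the gut wall, single or grouped into Peyer's patches, are domes of B cells around a network of follicular dendritic cells, with T cell zones between them. Stromal cells place lymphocytes there by chemokines: Cxcl13 draws B cells through its receptor Cxcr5, and Ccl19 and Ccl21 draw T cells and dendritic cells through Ccr7. Lymphocytes enter from the blood through high endothelial venules, which carry Madcam1 and Glycam1. The dome is covered by follicle-associated epithelium, which holds few goblet cells and contains M cells that carry particles from the lumen to the cells below, while the villi around it are covered by absorptive enterocytes. The labels give the tissue as ileum, and its defining gene Fabp6, the ileal bile acid-binding protein, was bright in every array, at 11.84 to 12.21 in the shams.

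All 3 markers moved together and left a wide gap. Ccl19 ran from 8.86 to 10.52 in the 8 arrays above the threshold and from 2.59 to 3.92 in the 10 below it. Cxcl13 ran from 10.54 to 11.20 above and from 4.82 to 7.40 below, and Glycam1 from 8.72 to 11.06 above and from 1.65 to 3.26 below. No array lay near the threshold. The member just inside it, Sham_VSG replicate 1, had a marker mean of 9.40, and the array just outside it, Sham_VSG replicate 5, had 4.79. A threshold of 6 or 8, or the mean of any 2 of the markers, placed the same arrays on each side. These values chose the arrays, so they are given as a description.

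**Figure D1:**
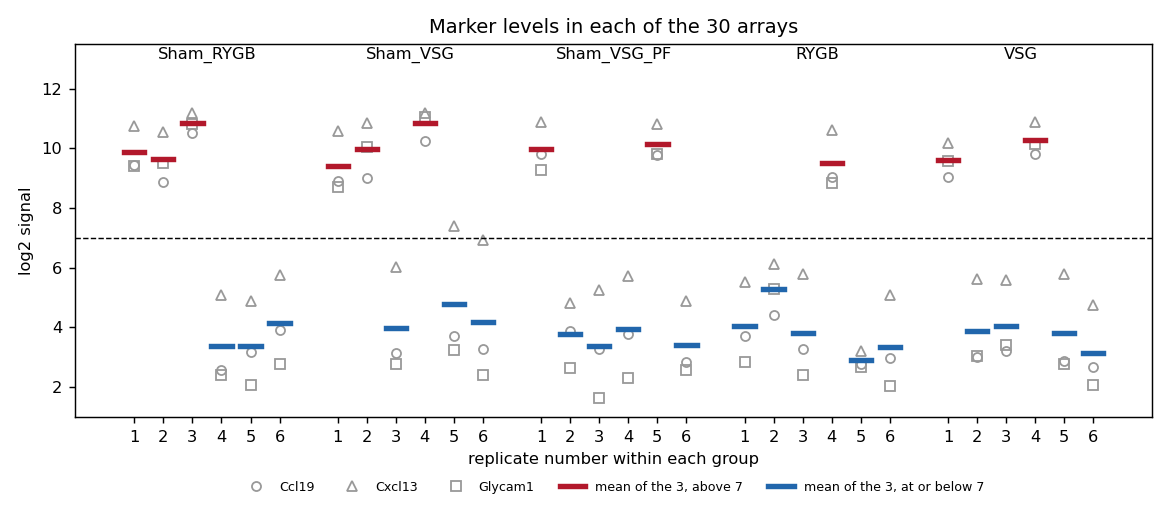
Log2 signal (y axis) of Ccl19, Cxcl13 and Glycam1 (open symbols) in each of the 30 arrays, ordered by group and replicate number (x axis). Thick lines are the mean of the 3 markers, red above the dashed threshold of 7 and blue at or below it; the 8 sham means above the threshold start at 9.40 and the 10 below it end at 4.79.

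Arrays above the threshold occurred in every group. Sham_RYGB held 3 of them (replicates 1, 2 and 3), Sham_VSG 3 (replicates 1, 2 and 4) and Sham_VSG_PF 2 (replicates 1 and 5). Among the operated rats, RYGB held 1 (replicate 4) and VSG 2 (replicates 1 and 4). The share did not differ detectably among the 3 sham groups (two-sided Fisher's exact test, p = 1), nor between the 12 operated and the 18 sham arrays (Fisher's exact test, p = 0.443). The groups of 6 rats allow no finer statement. By replicate number, which the labels do not tie to a litter or day, the arrays above the threshold in the 5 groups were 4 for number 1, 2 for number 2, 1 for number 3, 3 for number 4, 1 for number 5 and 0 for number 6.

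Across 14554 genes, those other than the 3 markers that had a cluster of their own, 310 were higher in the 8 arrays above the threshold and 0 were lower. Higher or lower here means a log2 difference of at least 1 after allowing for the group label, with no overlap between the 8 and the 10 arrays. The background share was 2.13% of all genes for higher and 0% for lower. Counted by lack of overlap alone, 489 genes (3.36%) lay wholly higher and 136 (0.934%) wholly lower. The median difference over all genes was -0.03, and the median log2 signal of an array over all clusters ran from 3.10 to 3.25. Over named genes alone the median was 0.0953 higher in the 8 arrays after allowing for the group, so differences of that size depend on scaling. Because all genes come from the arrays that the markers split, no p-value is given for this contrast. In pieces of whole gut wall, fewer cells of a type and less RNA per cell cannot be told apart.

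The 10 genes with the largest positive differences were Ms4a1 (5.93), Fcmr (5.10), Cd180 (4.53), Tnfrsf13c (4.45), Cxcr5 (4.21), Ceacam4 (4.18), A630001G21Rikl (3.88), Ccl21 (3.86), Vpreb3 (3.82) and Fcer2 (3.77). Most of them are surface proteins of B cells or receptors and chemokines of the follicle. The 10 most negative differences were smaller, from -1.87 for St6galnac1 to -0.99 for Cfap90, and the 8 and 10 arrays overlapped for each of those genes.

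**Figure D2:**
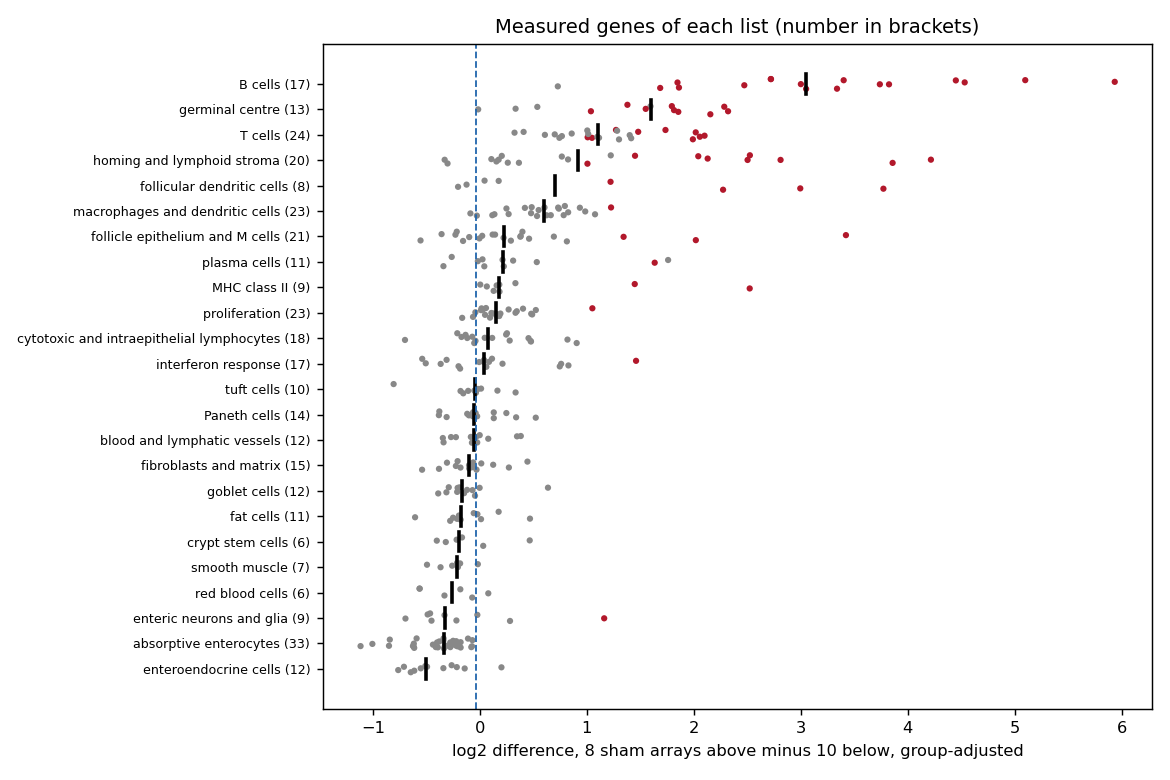
Group-adjusted log2 difference between the 8 sham arrays above and the 10 below the marker threshold (x axis) for each measured gene of 24 lists (y axis, number measured in brackets). Red points are genes at least 2-fold higher without overlap, black bars the list medians and the dashed line the median of all 14554 genes, -0.03; B cell genes have the highest list median, 3.05, and enteroendocrine genes the lowest, -0.50.

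The 12 operated arrays, which the rule did not use, allow a test. There, 3 arrays (RYGB replicate 4 and VSG replicates 1 and 4) had marker means of 9.51, 9.60 and 10.28, and 9 had means from 2.90 to 5.27. With the same threshold and the group label as a covariate, limma called 480 genes higher (3.3% of all genes) and 141 lower (0.969%) at a Benjamini-Hochberg adjusted p below 0.05. The arrays were split by the same markers, so this tests association with those markers over arrays, not a treatment. Of the 310 genes higher in the shams, 276 also passed as higher in the operated arrays, which is 89% of the sham list and 57.5% of the operated list. All 310 had a positive difference there, with a median of 1.39 against 1.58 in the shams, and 34 did not pass. The counts leaned on single arrays: 249 higher and 26 lower without VSG replicate 4, 286 and 49 without RYGB replicate 4, and 92, 77 and 76 lower without VSG replicates 2, 3 and 6. The median signal over named genes was 0.11 higher in the operated arrays above the threshold. Centring each array on its median gave 389 higher and 470 lower, so the balance of directions in the operated arrays depended on scaling. Fat cell genes stood high in 4 operated arrays, VSG replicate 1 above the threshold (list mean 6.78) and RYGB replicates 1, 3 and 6 below it (6.57, 6.29 and 5.94). Without those 4 arrays the counts were 571 higher and 177 lower.

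**Figure D3:**
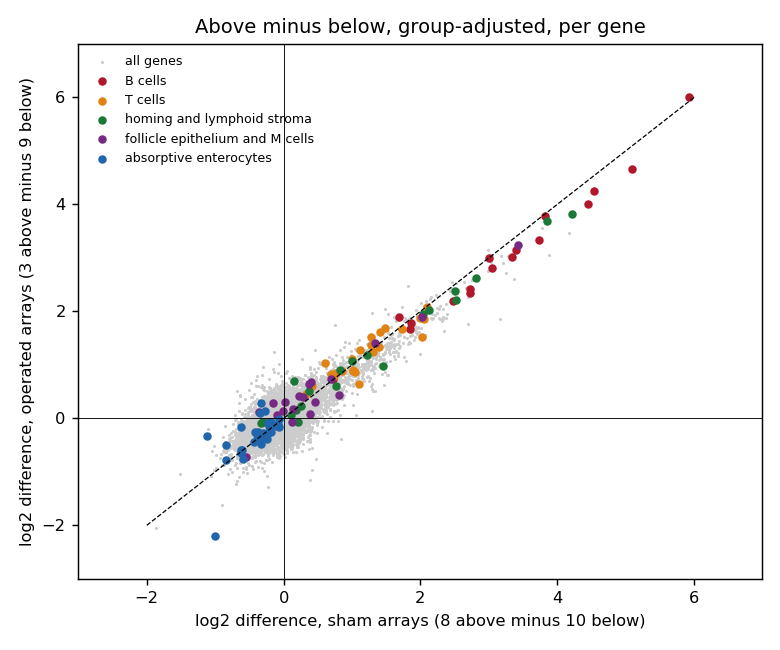
Group-adjusted log2 difference, above minus below the marker threshold, for each gene in the 18 sham arrays (x axis) and in the 12 operated arrays (y axis); the dashed line marks equal differences. B cell, T cell and homing genes lie along it up to Ms4a1 at 5.93 and 6.01, and absorptive enterocyte genes lie below 0 in the shams.

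B cell genes differed most. Of 25 listed genes 17 had a value, all 17 were positive, 16 of them were higher by the rule above (background 2.13%), and the list's median difference was 3.05 against -0.03 for all genes. Averaged over the 17 genes, the log2 signal was 7.35 ± 0.39 (SD, n = 8) above the threshold and 4.15 ± 0.18 (SD, n = 10) below it. Ms4a1, which encodes the B cell surface protein CD20, ran from 8.42 through a median of 9.05 to 9.32 above the threshold and from 2.15 through 2.75 to 4.04 below it. The lowest array above the threshold thus exceeded the highest below by more than 4 log2 units. No fold is given, since the values below the threshold lie at the dim end of the array, where RMA compresses differences. In the operated arrays Ms4a1 was at 8.49, 8.09 and 9.30 in RYGB replicate 4 and VSG replicates 1 and 4, and at 1.79 to 3.04 in the other 9 (difference 6.01, 95% CI 5.34 to 6.68, adjusted p = 6.86e-07).

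Other receptors of mature B cells followed the same order. Fcmr, the Fc receptor for IgM, was at 9.14 ± 0.41 above and 4.06 ± 0.36 below. Tnfrsf13c, the receptor for the B cell survival factor BAFF, was at 8.23 ± 0.43 and 3.74 ± 0.47, and Cd180, a Toll-like receptor homologue of B cells, at 7.41 ± 0.39 and 2.87 ± 0.39. Pax5, the transcription factor that maintains B cell identity, was at 7.69 ± 0.47 and 4.27 ± 0.26. The operated differences of these 4 genes were 4.66, 4.01, 4.26 and 3.15, each with an adjusted p of 2.52e-05 or less. Blnk, an adaptor of the B cell receptor that macrophages also express, was the 1 measured gene of the list that was not higher by the rule, with a difference of 0.73.

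The octamer motif ATTTGCAT is bound by the Oct transcription factors, which in B cells work with a coactivator, and many B cell promoters carry it. RefSeq promoter windows of the GRCr8 assembly, 250 bases before to 50 after the transcription start, were searched for it on both strands. A window was found for 11 of the 17 B cell genes, and 2 of these held the motif, those of Vpreb3 and Blnk. Among the genes higher in the shams, 8 of 234 with a window held it (3.42%): A630001G21Rikl, Ccr6, Cnr2, Egr2, Mef2b, Treml2, Vpreb3 and Zfp318. The share was 1.65% among all genes described with a window (194 of 11784) and 1.64% among all promoters (451 of 27457). A match is only a description of the letters. The windows of the B cell genes Vpreb3 and Blnk and of the receptor gene Ccr6 are shown because the 3 share the motif while their differences were 3.82, 0.73 and 2.81. They lie at chr20:12718177-12718476, chr1:249770484-249770783 and chr1:55046079-55046378, each on the minus strand, and are written 5′ to 3′ with the motif in capitals, which starts 56, 189 and 91 bases before the transcription start.
Vpreb3: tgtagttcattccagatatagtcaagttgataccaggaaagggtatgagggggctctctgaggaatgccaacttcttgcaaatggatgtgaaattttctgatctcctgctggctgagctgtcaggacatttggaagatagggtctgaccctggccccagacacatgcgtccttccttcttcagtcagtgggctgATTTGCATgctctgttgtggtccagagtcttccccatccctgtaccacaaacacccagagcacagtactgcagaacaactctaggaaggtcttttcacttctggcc
Blnk: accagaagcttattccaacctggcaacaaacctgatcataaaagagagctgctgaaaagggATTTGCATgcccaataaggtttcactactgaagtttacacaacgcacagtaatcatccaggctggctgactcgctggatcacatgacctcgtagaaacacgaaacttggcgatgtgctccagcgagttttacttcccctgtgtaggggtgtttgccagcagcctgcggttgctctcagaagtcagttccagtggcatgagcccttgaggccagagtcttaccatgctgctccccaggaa
Ccr6: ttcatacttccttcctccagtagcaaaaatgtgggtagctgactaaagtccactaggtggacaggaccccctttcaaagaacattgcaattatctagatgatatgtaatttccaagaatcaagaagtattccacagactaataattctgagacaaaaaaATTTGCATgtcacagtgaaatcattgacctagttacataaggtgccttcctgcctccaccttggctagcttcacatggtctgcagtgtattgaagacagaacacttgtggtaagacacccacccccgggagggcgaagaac

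Genes of the germinal centre, where B cells divide and mutate their receptors, were higher for 9 of 13 measured of 20 listed (background 2.13%). The list's median difference was 1.59. Bcl6, the transcription factor required for germinal centre B cells and their helper T cells, ran from 6.85 through a median of 7.66 to 8.02 above the threshold and from 4.69 through 5.28 to 6.28 below it. The lowest of the 8 arrays, Sham_VSG replicate 1, and the highest of the 10, Sham_VSG_PF replicate 6, came within 1 log2 unit of each other without overlapping. Il21r, the receptor for the helper cytokine of the germinal centre, differed by 2.28, Sh2d1a, a signalling adaptor of helper T cells, by 1.85, and the DNA glycosylase Neil1 by 2.15. S1pr2, which keeps B cells inside the germinal centre, differed by 1.04. Of this list 10 genes were called higher in the operated arrays (background 3.3%). Adjusted p-values were 0.00407 for Bcl6, 0.00119 for Il21r, 0.00187 for Sh2d1a, 0.000148 for Neil1 and 0.00156 for S1pr2. Rgs13, a signalling regulator shared by germinal centre B cells and tuft cells, overlapped between the sides (difference 0.33).

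Follicular dendritic cells hold antigen for B cells. Of 15 listed genes 8 had a value and 4 were higher (background 2.13%): Fcer2, Fcamr, Mfge8 and Cilp. Fcamr, an Fc receptor for IgA and IgM that mouse follicular dendritic cells carry, ran from 5.88 through a median of 6.25 to 7.14 above the threshold and from 2.69 through 3.30 to 4.08 below it. Sham_RYGB replicate 1 was the highest array. Mfge8, which helps clear dying B cells, was at 9.45 ± 0.44 above and 7.17 ± 0.24 below, and Fcer2, the low-affinity IgE receptor that B cells also carry, at 6.73 ± 0.52 and 2.93 ± 0.44. Cilp, a matrix protein, was at 3.86 ± 0.52 and 2.59 ± 0.11. The operated differences were 2.76 for Fcamr (adjusted p = 0.000148), 2.05 for Mfge8 (adjusted p = 1.75e-05) and 3.55 for Fcer2 (adjusted p = 0.0001). Cilp differed by 0.77 (adjusted p = 0.0207), and its call was lost without VSG replicate 1 (adjusted p = 0.0726) or VSG replicate 4 (adjusted p = 0.118). Fdcsp, a secreted protein of these cells, was at 2.18 ± 0.39 and 2.30 ± 0.23, below the 25th percentile of gene levels (2.33) on both sides.

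Homing and lymphoid stroma genes were higher for 9 of 20 measured of 29 listed (background 2.13%), with a median difference of 0.92. Ccl21, the stromal chemokine that shares Ccr7 with Ccl19, ran from 10.43 through a median of 10.66 to 11.05 above the threshold and from 6.19 through 6.86 to 7.75 below it. No sham array lay between 7.75 and 10.43. Cxcr5, the receptor for Cxcl13, ran from 6.91 through 7.54 to 8.19 above and from 2.73 through 3.40 to 3.87 below. Sham_RYGB replicate 3 and Sham_VSG replicate 4, the arrays with the highest marker means, also had the highest Cxcr5 values, 8.19 and 8.03. Ccr7 differed by 2.50, Ccr6, the receptor for Ccl20, by 2.81, and Ltb, a lymphotoxin subunit needed to build follicles, by 2.52. Madcam1, the addressin of gut venules, was at 7.50 ± 0.53 above and 5.36 ± 0.35 below, with the highest value, 8.42, in Sham_VSG replicate 4. The operated arrays had 11 of the 20 genes called higher (background 3.3%), and 7 without VSG replicate 4. Among the 11 were Ccl21 (difference 3.69, adjusted p = 6.86e-07), Cxcr5 (3.82, adjusted p = 4.44e-06), Ccr6 (2.62, adjusted p = 5.32e-05), Ccr7 (2.38, adjusted p = 2.52e-05), Ltb (2.22, adjusted p = 0.000132) and Madcam1 (2.02, adjusted p = 0.000299).

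**Figure D4:**
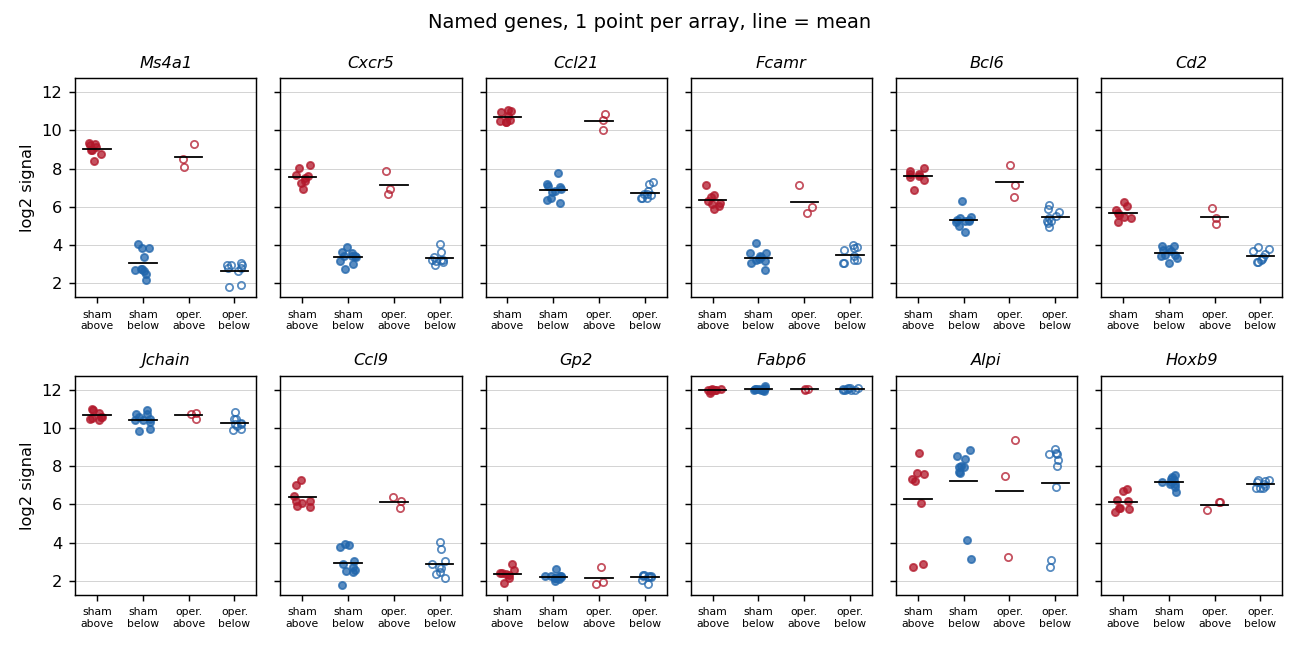
Log2 signal (y axis) of 12 genes in the 8 sham arrays above and 10 below the marker threshold (filled) and the 3 operated arrays above and 9 below it (open); each point is an array and the line the mean. Ms4a1, Cxcr5, Ccl21, Fcamr, Bcl6, Cd2 and Ccl9 separate without overlap in the shams, whereas Jchain, Gp2, Fabp6 and Alpi overlap and Hoxb9 is lower above the threshold with overlap.

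T cell genes were positive for all 24 measured of 29 listed, and 9 were higher by the rule (background 2.13%). The list's median difference was 1.11. Cd2, an adhesion receptor of T cells, ran from 5.21 through a median of 5.64 to 6.23 above the threshold and from 3.06 through 3.58 to 3.96 below it. Satb1, a chromatin organiser of T cells, differed by 2.06, Cd27, a costimulatory receptor also found on memory B cells, by 2.02, and Tcf7, a transcription factor of naive and helper T cells, by 1.99. Operated differences for Cd2, Satb1, Cd27 and Tcf7 were 2.08, 1.86, 1.51 and 1.87, with adjusted p-values of 8.18e-05, 0.0003, 0.0003 and 7.26e-05. Cd4, the coreceptor of helper T cells, was at 7.13 ± 0.23 above and 6.14 ± 0.23 below in the shams. Its operated difference was 0.90 (adjusted p = 0.00944), and the call was lost without VSG replicate 4 (adjusted p = 0.0734). Cd8a, the coreceptor of cytotoxic T cells, overlapped, at 7.53 ± 0.76 above and 6.99 ± 0.52 below, and within Sham_VSG alone its difference was -0.07. Cd3e, a chain of the T cell receptor complex, differed by 1.11 with overlap, and by 1.28 in the operated arrays (adjusted p = 0.0918). Foxp3, the factor of regulatory T cells, differed by 0.70 with overlap. The sham count rose to 15 without Sham_VSG replicate 5. Operated arrays had 10 of the 24 genes called higher (background 3.3%), 6 without RYGB replicate 4 and 5 without VSG replicate 4.

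Cytotoxic and intraepithelial lymphocyte genes, whose cells sit largely in the villus epithelium, gave no gene that passed the rule in the shams. Of 18 measured genes of 21 listed, 0 were higher or lower, 10 were positive, and the median difference was 0.08, which centring turned to -0.01. The list mean was 5.29 ± 0.38 above and 5.18 ± 0.31 below. Gzmb, a granule protease of killer cells, was at 4.85 ± 0.94 and 4.92 ± 0.84, and its difference within Sham_VSG was -1.56 against 1.38 within Sham_VSG_PF. Prf1, the pore-forming protein of the same granules, differed by 0.91 with overlap. The operated arrays leaned higher, with 14 of the 18 genes positive and a median of 0.41. Klrk1, an activating receptor of killer cells, differed by 0.82 with overlap in the shams and by 1.03 in the operated arrays (adjusted p = 0.058), where it passed as higher without RYGB replicate 3 (adjusted p = 0.00499) or VSG replicate 1 (adjusted p = 0.0405). Klrb1, a receptor of natural killer cells, differed by -0.70 with overlap. It was the 1 gene of the list called in the operated arrays, as lower (-1.24, adjusted p = 0.0266, background 0.969%). That call was lost without RYGB replicate 4 (adjusted p = 0.0968) or VSG replicates 1, 2 or 4 (0.0854, 0.0513 and 0.0986).

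Plasma cells, which secrete IgA throughout the ileal lamina propria, differed in another way from B cells. Of 11 measured genes of 15 listed, 1 was higher (background 2.13%), and the median difference was 0.21. The higher gene was Irf4, a transcription factor that activated B and T cells also use (6.59 ± 0.52 above, 4.96 ± 0.35 below). Jchain, which links IgA into dimers, ran from 10.43 through a median of 10.59 to 10.98 above the threshold and from 9.86 through 10.44 to 10.96 below it. For Jchain the 8 arrays therefore overlapped the upper part of the range of the 10, while the Ms4a1 values of the 2 sides lay far apart. Xbp1, the secretory transcription factor, and Sdc1, a surface proteoglycan that gut epithelium also carries, differed by -0.26 and -0.34, both with overlap. Mzb1, a chaperone for IgM found in plasma cells and some B cells, differed by 1.76 with overlap. In the operated arrays Irf4 (1.88, adjusted p = 0.00276) and Mzb1 (1.83, adjusted p = 0.00948) passed, and Mzb1 was lost without RYGB replicate 4 (adjusted p = 0.0855) or VSG replicate 4 (adjusted p = 0.0828). Jchain differed there by 0.41 (adjusted p = 0.264). Without Sham_VSG replicate 1 the sham count was 2. Within Sham_VSG alone the list's median was -0.12.

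Macrophage and dendritic cell genes were positive for 21 of 23 measured of 27 listed, with a median difference of 0.60. Only Timd4 was higher by the rule (background 2.13%). Timd4, a receptor for dying cells on macrophages, was at 4.66 ± 0.43 above and 3.50 ± 0.29 below. Cd68, a lysosomal protein of macrophages, was at 7.27 ± 0.21 and 6.28 ± 0.30, and Csf1r, the receptor for their growth factor, at 6.46 ± 0.12 and 5.66 ± 0.23. Both lay apart without overlap while missing a difference of 1 (0.98 and 0.79). Lamp3, a marker of mature dendritic cells, differed by 1.08 with overlap. The sham count was 2 without Sham_RYGB replicates 2 or 6 or Sham_VSG replicates 1, 4 or 5, each left out alone. The operated arrays had 11 of the 23 genes called higher (background 3.3%), including Cd68 (1.25, adjusted p = 0.000952) and Lamp3 (1.05, adjusted p = 0.00181). The count was 7 without VSG replicate 2, 4 without RYGB replicate 4 and 2 without VSG replicate 4. Csf1r (0.71, adjusted p = 0.0173) was lost without RYGB replicate 4 (adjusted p = 0.148) or VSG replicate 4 (adjusted p = 0.103), and Timd4 (1.05, adjusted p = 0.00632) without VSG replicate 4 (adjusted p = 0.0581).

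Among the 9 measured MHC class II genes of 12 listed, 2 were higher (background 2.13%). They were RT1-DOb and RT1-DOa, the chains of the DO molecule that tunes peptide loading in B cells. RT1-DOb was at 6.33 ± 0.51 above and 3.82 ± 0.42 below, and RT1-DOa at 7.01 ± 0.36 and 5.59 ± 0.32. Cd74, the invariant chain made by all class II-expressing cells, was at 11.72 ± 0.03 and 11.66 ± 0.05 on the 2 sides. The list's median was 0.18. All 9 differences were positive, and 7 remained so when arrays were centred on their medians. The operated arrays called the same pair higher (background 3.3%), with differences of 2.24 (adjusted p = 0.000174) and 1.10 (adjusted p = 0.000534).

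Follicle epithelium and M cell genes were split. Of 21 measured genes of 26 listed, 3 were higher (background 2.13%), 14 were positive and the median difference was 0.22. Averaged over the 21 genes, the log2 signal lay at 6.06 to 6.19 above the threshold and at 5.59 to 5.78 below it, without overlap. Most of that gap came from the 3 higher genes, whose differences summed to 6.78, against 2.31 for the other 18. Averaged over those 18, the arrays overlapped, at 5.89 to 6.05 above and 5.73 to 5.93 below. Ccl9, a chemokine that mouse follicle-associated epithelium secretes to draw dendritic cells, ran from 5.84 through a median of 6.18 to 7.29 above the threshold and from 1.79 through 2.79 to 3.92 below it. Sham_RYGB replicate 1 and Sham_VSG replicate 1 were the highest arrays, at 7.29 and 7.04, although they were not those with the highest marker means. Tnfaip2, a membrane-remodelling protein of M cells, ran from 4.70 through 5.28 to 5.53 above and from 3.10 through 3.95 to 4.30 below. Rac2, a signalling protein that lymphocytes also express, was at 9.80 ± 0.26 and 7.76 ± 0.28. Among the operated arrays these 3 genes differed by 3.24 (adjusted p = 0.000132), 1.42 (adjusted p = 0.000957) and 1.89 (adjusted p = 0.000299). Which cells of the gut wall carried the 3 transcripts was not tested.

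No other gene of the list passed the rule in the shams. Of the 21 genes, 4 were called higher in the operated arrays (background 3.3%), among them Ccl9, Tnfaip2 and Rac2. There 17 of the 21 were positive and the list's median was 0.31. The operated count was 3 without RYGB replicate 4 or VSG replicates 1, 2, 4 or 6, each left out alone. Ccl20, the epithelial chemokine that draws Ccr6-bearing cells, ran with overlap at 7.99 ± 0.61 above and 7.19 ± 0.52 below, and its operated difference was 0.43 (95% CI -0.59 to 1.46, adjusted p = 0.712). Gp2, the bacterial receptor of mature M cells, stayed at 2.36 ± 0.29 and 2.22 ± 0.17, at the dim end of the array. Tnfrsf11a, the receptor for the cytokine that induces M cells, differed by -0.36 with overlap, Ubd, a ubiquitin-like protein, by -0.16, and the bacterial-wall-binding protein Pglyrp1 by 0.29. The median of the list moved with the scaling and with single arrays, from 0.10 without Sham_VSG_PF replicate 1 to 0.32 without Sham_VSG replicate 5. Within the groups it was 0.04 in Sham_VSG and 0.32 in Sham_VSG_PF.

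Absorptive enterocyte genes were lower on average by a modest amount. All 33 measured genes of 46 listed had a negative difference, 0 passed the rule for lower (0% of all genes did), and the median was -0.34 against -0.03 for all genes. Genes this bright leaned slightly downward in general: of 1414 genes with a mean log2 signal above 8 in the shams, 60.3% were negative, with a median of -0.06. Averaged over the 33 genes, the log2 signal was 8.57 ± 0.33 above the threshold and 8.97 ± 0.11 below it, and the sides overlapped. Fabp6 was at 11.99 ± 0.07 and 12.05 ± 0.07, a difference of -0.07. Slc10a2, the ileal bile acid transporter, ran from 9.77 through a median of 10.11 to 10.70 above and from 10.29 through 10.41 to 10.62 below. Of the 8 arrays only Sham_RYGB replicate 1 and Sham_VSG replicate 1 reached the range of the 10. Slc15a1, the peptide transporter, differed by -0.32, Slc5a1, the sodium-glucose transporter, by -0.41, the brush border protein Vil1 by -0.30, the fatty acid-binding protein Fabp1 by -0.11 and the apolipoprotein Apoa4 by -0.28.

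The larger absorptive differences came with large spread. Alpi, the intestinal alkaline phosphatase, was at 6.27 ± 2.26 above and 7.24 ± 1.95 below, because 2 of the 8 arrays and 2 of the 10 lay between 2.71 and 4.13 and the rest at 6.08 or more. Slc2a2, a basolateral glucose transporter, differed by -0.85 overall but by 0.96 in the opposite direction within Sham_VSG. Abcg5, a sterol exporter, differed by -0.84 and Cyp2b1, a drug-metabolising cytochrome, by -1.004, both with overlap. Among the operated arrays the list's median was -0.27 against -0.01 for all genes, and 3 of the 33 genes were positive. Those called lower there were also 3 (background 0.969%), Cdhr5, Cdhr2 and Mep1a, named after their values were seen. Their adjusted p-values were 0.0366, 0.0435 and 0.0266. The first 2 are cadherins of the brush border and Mep1a a brush border protease. The 3 calls did not hold up when single arrays were left out: 0 remained without RYGB replicate 4 or VSG replicates 2, 3 or 4, and 1 without RYGB replicates 5 or 6 or VSG replicate 6. Slc10a2 differed there by -0.47 (adjusted p = 0.0554) and passed without VSG replicate 5 (adjusted p = 0.0469).

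Across arrays the B cell and absorptive levels did not mirror each other exactly. Sham_RYGB replicate 3 had the highest B cell list mean (7.88) and the lowest absorptive list mean (8.03). Sham_VSG replicate 1 had a B cell mean of 6.88 and an absorptive mean of 9.13, the highest of all shams. Sham_RYGB replicate 2 had the lowest B cell mean of the 8 arrays, 6.78, with an absorptive mean of 8.50. The 10 arrays below the threshold stayed between 3.86 and 4.43 for B cells and between 8.73 and 9.12 for absorptive genes.

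**Figure D5:**
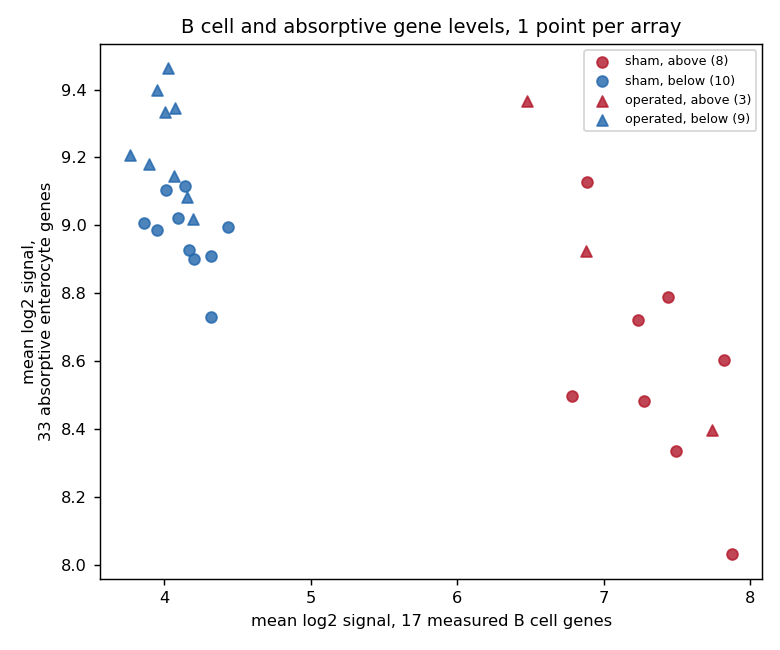
Mean log2 signal of 17 B cell genes (x axis) and of 33 absorptive enterocyte genes (y axis), 1 point per array; circles are sham and triangles operated arrays, red above and blue at or below the marker threshold. The 8 sham arrays above the threshold spread from 8.03 to 9.13 on the absorptive axis, and the 10 below it stay between 8.73 and 9.12.

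Enteroendocrine genes had the lowest median of any list in the shams, -0.50, with 11 of 12 measured genes negative and 0 called lower. In the operated arrays the list's median was -0.25, with 3 of 12 positive and 0 called, and smooth muscle genes had the lowest median, -0.49. Chgb, a granule protein of hormone-secreting cells, ran from 7.23 through a median of 7.66 to 8.21 above the threshold and from 8.25 through 8.35 to 8.63 below it. The sides did not overlap, although Sham_VSG replicate 1 came within 0.1 of the lowest array below. The operated difference of Chgb was -0.52 (adjusted p = 0.051), and it passed without RYGB replicate 3 (adjusted p = 0.0374) or VSG replicate 1 (adjusted p = 0.0286). Nts, the hormone neurotensin, differed by -0.71, Neurod1, a transcription factor of these cells, by -0.65, and the granule protein Scg2 by -0.61, each with overlap. The list's median was -0.68 within Sham_RYGB, -0.22 within Sham_VSG and -0.64 within Sham_VSG_PF.

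The remaining epithelial lists, and those of proliferation and the interferon response, had small median differences in the shams. Goblet cell genes had a median of -0.17, with 11 of 12 negative and Atoh1, the secretory lineage factor, at 8.29 ± 0.27 above and 8.67 ± 0.17 below. Medians were -0.05 for 14 Paneth cell genes, -0.04 for 10 tuft cell genes and -0.19 for 6 crypt stem cell genes, with 0 genes called in each. Lgr5, the receptor that marks crypt stem cells, differed by -0.40 with overlap. Gnat3, a taste-type G protein of tuft cells, differed by -0.81 with overlap. Of 23 proliferation genes, 20 were positive (15 after centring), against 6348 of all 14554 genes (3948 after centring). The list's median was 0.15, and 1 gene was higher by the rule (background 2.13%). This was Mcm3, a subunit of the replicative helicase, at 7.18 ± 0.40 above and 6.13 ± 0.28 below. Its operated difference was 0.95 (adjusted p = 0.0127), and it was lost without RYGB replicate 4 (adjusted p = 0.0939) or VSG replicate 4 (adjusted p = 0.104). In the shams Mcm3 fell short of the rule without Sham_RYGB replicates 3 or 6 or Sham_VSG replicate 4. In the operated arrays 21 of the 23 proliferation genes were positive, against 7018 of all 14554 genes, with a list median of 0.35. There 2 were called higher (background 3.3%), and 0 without RYGB replicate 4 or VSG replicate 4. Among 17 interferon response genes 1 was higher in the shams (background 2.13%), Mx1, an antiviral GTPase (5.27 ± 0.37 above, 3.76 ± 0.41 below). The list's median of 0.04 turned to -0.06 after centring. No interferon gene was called in the operated arrays, where Mx1 overlapped, at 4.62 to 5.11 against 2.83 to 4.66 (difference 1.21, adjusted p = 0.0602). Mx1 passed without RYGB replicate 6 (adjusted p = 0.0394) or VSG replicate 5 (adjusted p = 0.0147).

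Gene lists for cells of the deeper gut wall had negative median differences in the shams, although single genes such as S100b and Bgn were higher. All 7 measured smooth muscle genes were negative, with a median of -0.21 and 0 called in the shams. In the operated arrays 4 of the 7 were called lower (background 0.969%), with a list median of -0.49. Without RYGB replicate 4 there were 0, without VSG replicate 4 there was 1, and without RYGB replicates 1 or 6 or VSG replicates 2, 3, 5 or 6 there were 2. Mylk, the kinase of the contractile light chain, differed there by -0.57 (adjusted p = 0.00739) and was lost without RYGB replicate 4 (adjusted p = 0.0701). Synpo2, an actin-bundling protein, differed by -0.54 (adjusted p = 0.013) and was lost without RYGB replicate 4 (adjusted p = 0.119) or VSG replicate 4 (adjusted p = 0.1). Among 9 genes of enteric neurons and glia the median was -0.33, while 1 was higher (background 2.13%). This was S100b, a calcium-binding protein of glia and some other cells, at 5.02 ± 0.29 against 3.83 ± 0.40. Its operated difference of 0.96 did not pass (adjusted p = 0.0889) except without RYGB replicate 4 (adjusted p = 0.0218). Fibroblast and matrix genes had a median of -0.10. In that list Postn, a matrix protein, lay wholly lower (6.86 ± 0.17 against 7.39 ± 0.19) and Bgn, a matrix proteoglycan, wholly higher (8.59 ± 0.20 against 8.13 ± 0.10). Medians were -0.05 for vessel genes, -0.18 for fat cell genes and -0.26 for red blood cell genes. The operated medians were -0.24 for neuron and glia genes and 0.02 for fibroblast and matrix genes. They were 0.04 for vessel, 0.37 for fat cell and 0.04 for red blood cell genes. How far these other tissues account for differences in the lists above was not tested.

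The 10 genes with the most negative differences had mixed roles. St6galnac1, a sialyltransferase of mucin sugars, ran from 4.37 through a median of 4.84 to 9.07 above the threshold. Below it the gene ran from 5.29 through 9.37 to 9.55, so the 2 sides overlapped widely. Slc5a4, a glucose-binding relative of the sodium-glucose transporter, differed by -1.51, with 0.49 in the opposite direction within Sham_VSG. Pck1, an enzyme of gluconeogenesis, differed by -1.10, Gstm7, a glutathione transferase, by -1.04, Btnl4, a butyrophilin-like gene, by -1.01 and Maob, a monoamine oxidase, by -1.01. Hoxb9, a positional transcription factor, ran from 5.61 through a median of 5.99 to 6.80 above the threshold and from 6.63 through 7.16 to 7.54 below it. Of the 8 arrays, Sham_RYGB replicate 2 and Sham_VSG replicate 1 exceeded the lowest of the 10. In the operated arrays Hoxb9 lay apart, at 6.14, 5.71 and 6.12 against 6.84 to 7.30 (difference -1.07, 95% CI -1.38 to -0.76, adjusted p = 0.000743). Cfap90 differed there by -0.93 (adjusted p = 0.0428), and its call was lost on leaving out any 1 of 9 of the 12 arrays, with adjusted p-values of up to 0.246 (without VSG replicate 4).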

How the data were processed

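Per the labels' protocols, RNA was extracted from ileum with RNeasy, amplified (Ovation PicoSL WTA), biotin-labelled and hybridised to 1-colour arrays. The deposited values are log2 signals per transcript cluster. Per the submitters' processing notes the authors used Affymetrix Expression Console 1.3.0.187 and RMA. RMA compresses low signals, and which arrays were normalised together was not given. No detection calls or scan dates were used, so batches could not be examined. Of 36685 clusters, 14824 carried 1 gene symbol, 829 several and 21032 none in the platform annotation. The brightest cluster was kept for each of 14557 symbols, and the 3 markers were left out, leaving 14554 genes with no filter on dim genes.

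The sham arrays were split by the marker mean, and a linear model with the group label gave each gene's difference, means with SD and overlap. In the 12 operated arrays limma 3.58.1 in R 4.3.3 (lmFit and eBayes, group as covariate, 9 residual degrees of freedom, two-sided, Benjamini-Hochberg over all 14554 genes) gave the tests. The number of arrays limits precision: the median 95% confidence interval there reached 0.34 to either side. A fold is a power of 2 of the difference. Replicates are separate rats per the labels' numbering, and no label gives batches. The model was tested on simulated data. The arrays, markers and 24 gene lists were chosen with earlier results of these data known. Listed symbols without a cluster named for them alone were not analysed here. Genes were named by a rule: 46 genes of interest, up to 4 genes per list with the largest absolute difference, and the 10 most positive and 10 most negative differences. Others are said to be chosen after their values were seen, or named as the few called in a list. Alternatives were quantile normalisation, median centring, a filter at the 25th percentile, other cluster choices, no group covariate, a replicate block, thresholds of 6 and 8, each marker left out, other call rules, each sham group alone, moderation with trend, array weights, the marker mean as a continuous covariate, and each array left out. Leaving out the arrays high in fat cell genes and the look at genes with a mean above 8 were chosen after seeing the data. Plots used matplotlib 3.10.9 (Python 3.11.15).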

Additional observations from a re-analysis of the deposited data

Results flagged for a closer look

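In the 9 operated arrays below the marker threshold, the mean over the enteroendocrine list was lowest in VSG replicate 5, at 5.81, with the next array at 6.04. The gap was 0.519 of the whole range, a wide one for 9 arrays. It was the 1 flag among 72 sets of arrays and lists examined, where chance alone flags about 1 in 20.

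The transcript clusters that carry no gene symbol or several were not used in the comparisons. Of these 21861 clusters, 143 (0.654%) were at least 2-fold higher without overlap in the 8 sham arrays above the threshold and 0 were lower. Their largest difference was 5.66 on the log2 scale, and the median of the 143 was 1.61. The share among named genes was 2.13%.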

How the results depend on the processing

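The count of higher genes in the shams stayed between 267 and 341 in the settings over all groups, apart from the call rules. Among called genes that the naming rule had picked, 0 reversed direction in the settings where single genes were compared. The other called genes were not checked for this. Leaving out each array in turn gave 299 to 341 higher and 0 to 2 lower, and in the operated arrays 249 to 524 higher and 26 to 175 lower. The follicle epithelium list's median then ran from 0.10 to 0.32 and the germinal centre list's from 1.45 to 1.85. Lower genes in the shams numbered 44 at 1.5-fold and 9 with overlap allowed.

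Within Sham_RYGB alone, 51 genes were lower, and medians were 1.04 for follicular dendritic, -0.045 for goblet and -0.68 for enteroendocrine genes. Within Sham_VSG, 8 were lower, and medians were 0.73 for homing, 1.20 for germinal centre, -0.12 for plasma, 0.81 for T cell, 0.42 for macrophage, 0.0447 for follicle epithelium, -0.22 for enteroendocrine, -0.18 for interferon, 0.09 for fat and 0.0735 for red blood cell genes. Within Sham_VSG_PF, 42 were lower, and medians were 1.07 for homing, 0.40 for follicular dendritic, 2.17 for germinal centre, 0.52 for plasma, 1.45 for T cell, 0.49 for cytotoxic, 0.32 for follicle epithelium, -0.64 for enteroendocrine and -0.41 for smooth muscle genes. These splits hold 6 arrays each.

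Centring gave a follicle epithelium median of 0.13 and 470 lower genes in the operated arrays. It also moved small medians by over 1.5 times: plasma to 0.12, MHC class II to 0.09, proliferation to 0.06, goblet to -0.26, Paneth to -0.15, tuft to -0.14, fibroblast to -0.19, vessel to -0.15 and fat to -0.27. The filter gave medians of 1.75 for follicular dendritic and -0.56 for red blood cell genes, since it removes dim members, and 225 operated lower genes. Trend with robust moderation gave 330, array weights 229, and a 2-fold minimum 5 lower and 279 higher.

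No label says that replicate numbers pair the samples. With group and side removed, residuals of 18 same-numbered sham pairs correlated at -0.20 to 0.21, 3 of them above 0.1. Different-numbered pairs were not compared, so a pairing by replicate number was not tested. With the number as a replicate block, 2 sham genes were lower, the B cell median was 3.42, and the operated arrays, left with 4 residual degrees of freedom, had 1 gene higher and 1 lower. The causes of these changes were not otherwise tested.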

Other observations

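Hox genes, which record position along the gut, were looked at after Hoxb9 appeared among the most negative differences. Of 27 with a value, 22 had a negative difference in the shams, against 8206 of all 14554 genes. By the rule 0 were higher or lower. Only 14 of the 27 had a mean log2 signal above 3 on either side, and all 14 were negative. Hoxb8 was among the 14 only through the arrays below the threshold (3.09 against 2.64), so its sign is no separate observation. The share of negative differences among all genes at that level was not counted. Hoxb6 differed by -0.90, Hoxb5 by -0.75 and Hoxb7 by -0.65, each with overlap, whereas Hoxc4 and Hoxd3 lay at -0.01. In the operated arrays 4 of the 27 Hox genes were called lower (background 0.969%). They were Hoxb6 (-1.62, adjusted p = 0.000344), Hoxb9 (-1.07, adjusted p = 0.000743), Hoxb7 (-1.10, adjusted p = 0.00112) and Hoxb5 (-1.004, adjusted p = 0.0181). Hoxb5 was lost without VSG replicate 1 (adjusted p = 0.0501) or VSG replicate 4 (adjusted p = 0.138).

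Below the threshold the 3 markers were not equally low. Cxcl13 ran from 6.02 to 7.40 in the 3 Sham_VSG arrays below it, from 4.87 to 5.76 in Sham_RYGB, from 4.82 to 5.73 in Sham_VSG_PF, from 4.74 to 5.79 in VSG and from 3.22 to 6.12 in RYGB. RYGB replicate 2 had the highest marker mean of all arrays below the threshold, 5.27, with Glycam1 at 5.29. Its Ms4a1 signal was 2.93, within the range of the other arrays below.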
